A study of Mus musculus with 18 samples.

Results

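Of the 58386 accessible regions on mouse autosomes in the pooled ATAC-seq catalog of bone marrow-derived macrophages (BMDMs), 7354 were CpG-rich coding promoters (12.6%, 95% Wilson interval 12.3 to 12.9). The whole catalog held 59617 extended regions, of which 1231 on the sex chromosomes were not used here. Each extended region was represented by its summit with the highest score, which is called the best summit below. A region was a member when its best summit lay within 1000 bp of the start of a protein-coding transcript and when the sequence 500 bp to each side of that summit held at least 50% GC and a CpG observed/expected ratio of at least 0.6, the number of CpG dinucleotides divided by the number expected from the counts of C and G. Annotation, sequence and, for the choice among summits of a region, the score thus entered the rule, so that GC and CpG content are no result here. The members made up 66.3% of the 11095 regions with a best summit near a coding start. The other 3741 regions are called CpG-poor coding promoters. Only 353 of the 43849 regions over 1000 bp from any annotated start met the same sequence thresholds (0.805%, 0.726 to 0.893), and the remaining 3442 regions lay near noncoding starts alone.

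ATAC-seq maps exposed DNA through the insertion of sequencing adapters by the Tn5 transposase. The cells were primary wild type BMDMs, grown from the bone marrow of male C57/BL6 mice aged 6 to 8 weeks. Every group was first kept in the vehicle DMSO for 1 h. One group got no stimulus, and the others were exposed for 30 min, 1 h, 2 h or 4 h to 10 ng/mL of either LPS, a component of bacterial outer membranes that activates the receptor TLR4, or the cytokine IL-4. The 18 libraries, 2 for each of 9 groups, were pooled by the authors into 3 lists of positions with 0 columns per library. No value can therefore be given per sample, stimulus or time, the depth of the libraries is unknown from these lists, and all statements are about a single catalog. Intervals cover counting error only, since neighbouring regions are not independent and regions are no replicates of a condition. Of 25 macrophage genes, 24 had a reference peak within 1000 bp of their most upstream coding start, the exception being Aif1. Markers of other cell types had one in 2 of 9 genes for T cells, 2 of 10 for B cells, 3 of 10 each for neutrophils and endothelium, 1 of 10 each for fibroblasts and for neurons and glia, and 0 of 10 for hepatocytes. For comparison, 53.6% of all coding genes and 27.6% of those with a CpG-poor start, to which most of these markers belong, had a peak there.

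In mammalian genomes most CpG dinucleotides are methylated, and methylated cytosines are lost over evolutionary time by deamination to thymine. Stretches that stay unmethylated in the germline keep their CpG dinucleotides and are known as CpG islands. They coincide with the start sites of nearly all genes that every cell uses and of many regulators of development, whereas genes expressed in a single tissue often start in CpG-poor sequence. CpG islands are bound by CXXC domain proteins, tend to be free of stable nucleosomes when active, and can be kept silent by Polycomb complexes.

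The 200 bases before the most upstream coding start of 5 genes are shown on the gene's strand of GRCm38.p6 with each CpG in capitals, as examples of starts of both classes. Nfkbia, which encodes the inhibitor of NF-kB that LPS induces, was a member. Tnf, Ccl5 and Il1b encode secreted inflammatory mediators and Cd68 a lysosomal glycoprotein of macrophages, and their starts were CpG-poor.
Nfkbia (chr12:55492648-55492847, minus strand): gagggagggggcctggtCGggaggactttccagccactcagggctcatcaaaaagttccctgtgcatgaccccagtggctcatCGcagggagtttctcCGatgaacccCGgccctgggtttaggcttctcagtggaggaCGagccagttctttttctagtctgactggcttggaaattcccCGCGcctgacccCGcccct
Tnf (chr17:35202008-35202207, minus strand): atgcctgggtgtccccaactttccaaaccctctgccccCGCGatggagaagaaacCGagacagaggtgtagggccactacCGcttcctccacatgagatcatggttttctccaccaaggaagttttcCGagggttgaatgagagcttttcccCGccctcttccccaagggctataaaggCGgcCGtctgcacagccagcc
Ccl5 (chr11:83530519-83530718, minus strand): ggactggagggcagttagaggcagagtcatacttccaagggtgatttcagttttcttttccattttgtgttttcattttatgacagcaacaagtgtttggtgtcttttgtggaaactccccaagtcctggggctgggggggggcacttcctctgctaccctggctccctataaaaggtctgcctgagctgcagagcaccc
Il1b (chr2:129371140-129371339, minus strand): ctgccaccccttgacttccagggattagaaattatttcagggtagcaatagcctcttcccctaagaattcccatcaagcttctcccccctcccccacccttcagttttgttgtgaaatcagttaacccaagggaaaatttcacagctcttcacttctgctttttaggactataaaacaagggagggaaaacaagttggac
Cd68 (chr11:69666154-69666353, minus strand): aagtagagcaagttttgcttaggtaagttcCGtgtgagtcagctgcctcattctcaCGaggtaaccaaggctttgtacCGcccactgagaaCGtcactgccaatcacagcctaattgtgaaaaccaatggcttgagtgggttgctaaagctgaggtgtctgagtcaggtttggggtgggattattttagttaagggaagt

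The stretch of Nfkbia held 8 CpG dinucleotides, the same number as that of Tnf. The stretch of Cd68 held 4, and those of Ccl5 and Il1b held 0. What set Nfkbia apart from Tnf lay mostly past the start: in the 500 bp downstream Nfkbia had 52 CpG dinucleotides against 12 at Tnf, while in the 500 bp upstream the counts were 21 and 10. The member at Actb, which encodes cytoskeletal actin, showed the same asymmetry, with 25 upstream and 44 downstream. The 3 genes Nfkbia, Tnf and Cd68 had best scores at their starts of 1903, 1877 and 2021. Actb scored 1696, Ccl5 1248 and Il1b 1071. The score is a whole number that the authors' file gives for each summit on a scale that is not stated, and it ran from 102 to 2781 over all 84660 summits.

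The members had a median GC content of 61.1% (quartiles 57.1 and 65) and a median CpG observed/expected of 0.794 (0.711 and 0.878), which follows from the rule. The members closest to the GC threshold were the promoters of Slc25a39, Synj2bp and Emc2, each at 50.05% GC with scores of 1851, 956 and 2008. Just outside it were Acyp2, Top2a and Rpl3, each at 49.95% with scores of 923, 1543 and 2008. Another region near a start of Rpl3, with a score of 716, was a member. At the CpG threshold, Trim32, Pde6d and Mgarp lay just inside (0.6 after rounding, scores 1094, 1456 and 654), and Inpp4b, Slc4a2 and Esd just outside (also 0.6 after rounding, scores 1594, 2074 and 2219). Within 0.02 of the CpG threshold, 260 regions lay inside with a median score of 1357 and 250 outside with a median score of 1326. Both medians lay below the 1543 of all members.

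How often a start was accessible can be asked independently of the rule, by classing genes by the sequence 500 bp to each side of their most upstream coding start. Of 20722 autosomal coding genes, 9622 had a CpG-rich start (46.4%). A reference peak lay within 1000 bp of 8038 of these (83.5%, 95% Wilson interval 82.8 to 84.3), against 3060 of the 11100 CpG-poor starts (27.6%, 26.7 to 28.4). The difference was 56.0 percentage points (Newcombe interval 54.8 to 57.1). On the 19 autosomes the share of CpG-rich starts with a peak was 83.3% ± 3.30 (SD) and ranged from 75% on chromosome 14 to 87.9% on chromosome 16, whereas for CpG-poor starts it ranged from 19.2% to 35.4%, so that the 2 classes did not overlap. The share climbed with the CpG ratio from 6.17% below 0.1 to 42.1% between 0.4 and 0.5 and 74.3% between 0.6 and 0.7, and levelled off at 89.2% from 0.9 upwards. The threshold of the rule at 0.6 therefore lies on the slope of this curve and not at a break in it. Within the CpG-rich starts a higher GC content went the other way: 88.4% of those between 50 and 55% GC had a peak, against 75.6% of those at 70% or more.

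**Figure D1:**
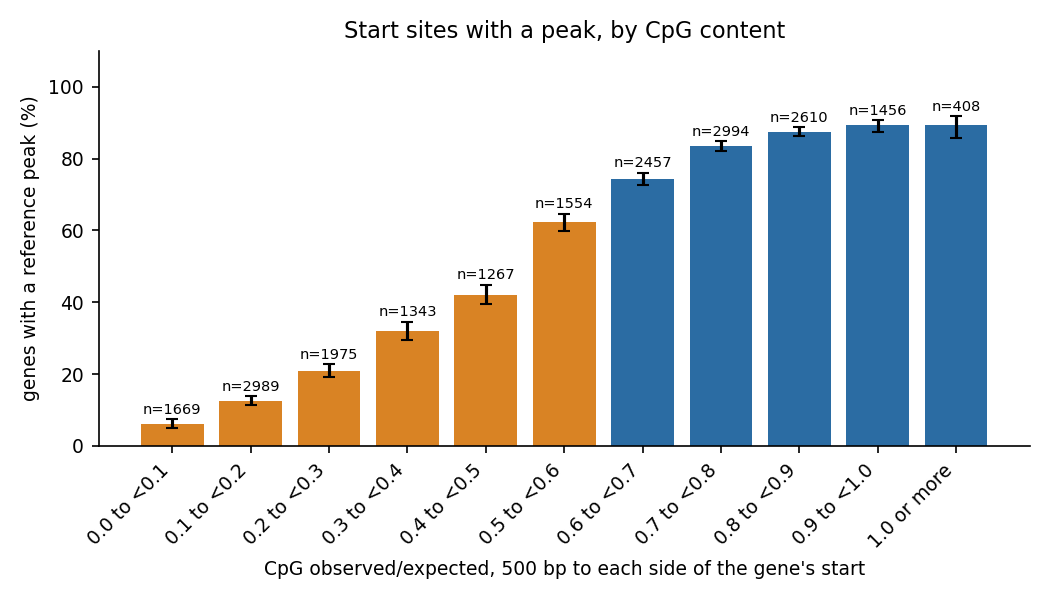
Share of autosomal coding genes with a reference peak within 1000 bp of their most upstream coding start (y axis, %), by the CpG observed/expected ratio around that start (x axis). Bars below 0.6 are orange and those from 0.6 are blue, error bars are 95% Wilson intervals, and n is the number of genes; the share rises from 6.17% in the lowest bin to 89.2% in the highest.

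Not every accessible CpG-rich start belonged to a member. A member lay within 1000 bp of a coding start of 8227 genes (39.7% of all coding genes). Among the 8038 genes with a CpG-rich start and a peak, 7432 had a member (92.5%, 91.9 to 93.0). Of the 606 others, 374 had a best summit near a coding start whose own window was CpG-poor, and for 232 the best summit of the region lay farther away. Myc, a growth regulator named after its values were seen, was among the 606 genes, with a peak at its CpG-rich start (score 1284) and no member. Conversely 519 of the 3060 accessible genes with a CpG-poor most upstream start had a member, and 276 genes had a member although no peak lay at that most upstream start. The 1584 CpG-rich starts without a peak were far from accessible DNA, with a median of 23925.5 bp to the nearest reference peak (quartiles 7735.5 and 90084.5). Only 104 of them (6.57%) had a peak at another coding start of the same gene. Their median GC content was 63.3%, above the 61.2% of the accessible ones, and their median CpG ratio was 0.739, below 0.795.

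The members were among the highest and widest entries of the catalog. Their median score was 1543 (95% interval of the median 1518 to 1556, quartiles 1164 and 1864), and 68.6% of them fell into the upper quartile group of all best summits, of which they made up 34.4%. CpG-poor coding promoters had a median score of 1117 and CpG-rich regions over 1000 bp from any start one of 1153 (quartiles 759 and 1581), so that the sequence thresholds alone did not go with scores as high as those of the members. The member median exceeded the CpG-poor median on 19 of 19 autosomes, by 433 ± 69.3 (mean and SD over autosomes, range 315 on chromosome 6 to 594 on chromosome 10). The reference peak around the best summit was 387 bp wide at the median member (quartiles 288 and 507) and 261 bp at the median CpG-poor promoter, with a wider member median on 19 of 19 autosomes (difference 96 to 147.5 bp). A second summit within the same reference peak was found in 10.5% of members and 3.96% of CpG-poor promoters. Only 677 members (9.21%) scored below the median of all best summits.

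**Figure D2:**
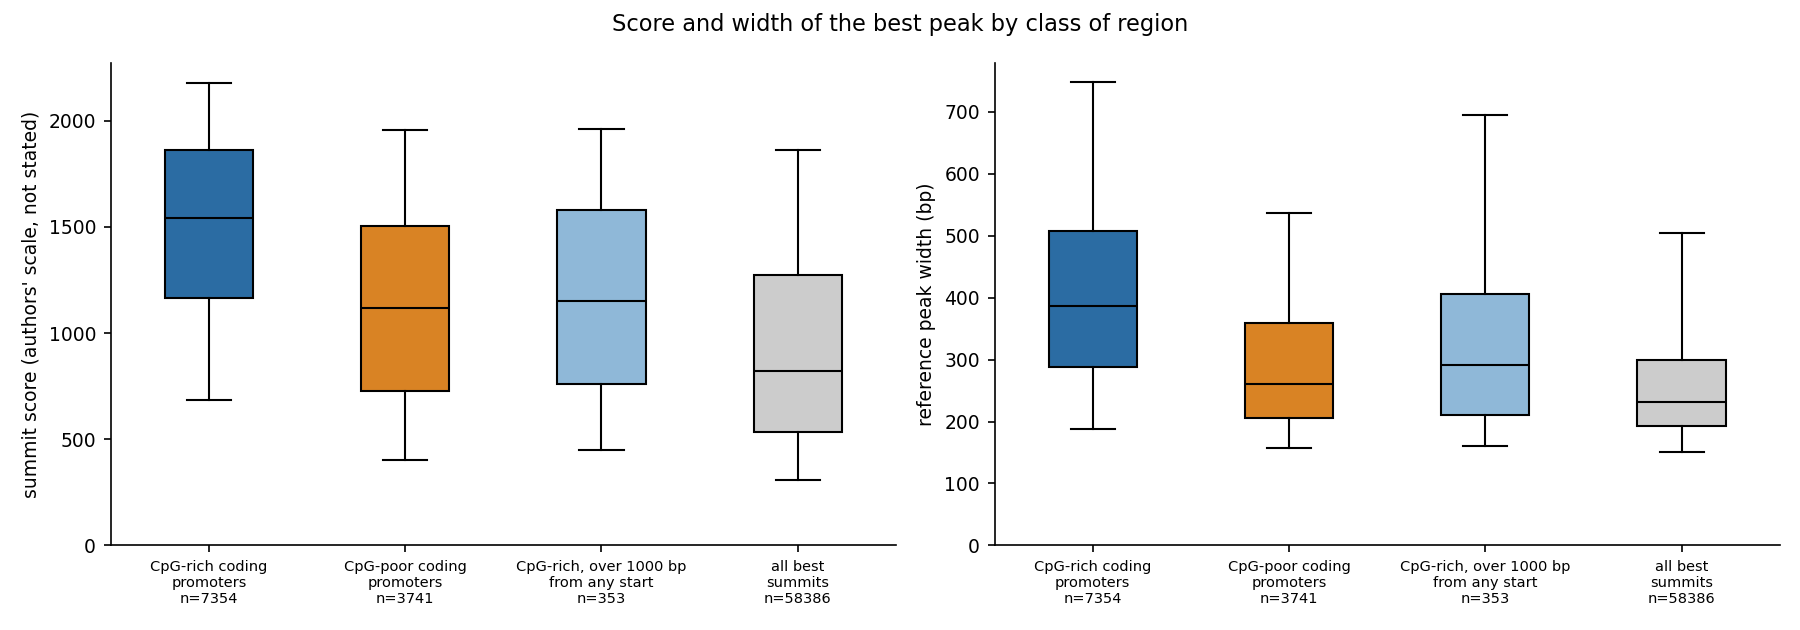
Summit score (left, authors' scale) and width of the reference peak in bp (right) for the 4 classes of best summits on the x axis. Boxes give quartiles with the median as a line and whiskers the 5th and 95th percentiles; the median score is 1543 for CpG-rich coding promoters, 1117 for CpG-poor ones and 1153 for CpG-rich regions away from starts.

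Within the members, score followed width (Spearman rho 0.705 across 7354 regions, which share libraries and depth) while rho was 0.0243 with GC content and 0.0673 with the CpG ratio, whose ranges the rule truncates. At CpG-poor promoters these were 0.201 and 0.265. Median scores were 1443 for members with a ratio between 0.6 and 0.7, 1581 between 0.8 and 0.9, and 1468 at 1 or more. Members at 70% GC or more had the lowest median score of the GC bins, 1369, and the most reference peaks per region, 2.22 on average, against 1.52 in members of 50 to 55% GC.

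Among the 5 highest scores were those of Ripk2, a kinase that relays signals from the intracellular receptors NOD1 and NOD2 (score 2691, peak at chr4:16163399-16164219), Hjurp, the chaperone of the centromeric histone CENP-A (2538), Etf1, a translation termination factor (2456), and Gatad2a, a subunit of the NuRD chromatin complex (2442). All 5 summits lay upstream of the start, at -4 to -124 bp. The 76 bases around the summit of Ripk2, the length of a read, occurred once on the autosomes, but the central 38 bases occurred at 2 places. The 5 lowest scores were those of Ovol1, an epithelial transcription factor (250), Igfbp7, a secreted binding protein of insulin-like growth factors (274), Scin, an actin-severing protein (282), Cgnl1, a junction protein of epithelia (282), and Zfp512b (290). In 4 of these 5 the summit lay over 200 bp from the nearest coding start, at -557 bp for Ovol1 and at 236 to 453 bp downstream for Igfbp7, Cgnl1 and Scin. The widest reference peaks were at Ppp2r3d (2030 bp, 4 summits), the imprinted gene Impact (1531 bp), Hnrnpul2 (1354 bp), the kinase gene Gsk3b (1301 bp) and Rbm15 (1285 bp), each with 2 to 4 summits. The highest CpG ratios were found at Ube3c (1.25), Caap1 (1.16), Anapc11 (1.15), Qk (1.15) and 1810010H24Rik (1.15). Scores among these 5 ran from 1129 at Caap1 to 1995 at Ube3c, on both sides of the member median.

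Summits lay just upstream of the start. At the median member the best summit was at -41 bp from the nearest coding start (95% interval -43 to -39 bp, quartiles -89 and -1 bp, negative values lying upstream). It was upstream in 75.1% and within 100 bp in 72.0% of members. At CpG-poor promoters it was within 100 bp in 54.5%. The start itself was inside the reference peak in 89.4% of members and 61.0% of CpG-poor promoters. The rule favours both contrasts in part, since it was applied to the window around the summit and not around the start. A summit away from a CpG-rich start could thus fall among the CpG-poor promoters. At 374 genes with an accessible CpG-rich start the window of the best summit was CpG-poor. The median over members of a chromosome was upstream on all 19 autosomes, between -54 and -26 bp.

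A further summit was listed in 4081 members (55.5%, 54.4 to 56.6), with 6959 of them in all and a median score of 0.473 times that of the best summit. These further summits were not spread evenly. Of those within 1000 bp of the start, 60.1% were downstream (58.7 to 61.5), and 620 lay 300 to 400 bp downstream against 230 at the same distance upstream. The corresponding share downstream at CpG-poor promoters was 53.0% (50.5 to 55.4), with 106 and 71 at 300 to 400 bp. Counted from the best summit instead of the start, 1628 further summits of members lay 200 to 600 bp downstream and 1089 upstream, with more downstream on 18 of 19 autosomes. Of the further summits, 5% lay within 254 bp of the best one. The positions are summits of reads extended by a fixed length, and no shift towards the Tn5 cut site is named in the study's methods, so short distances may carry an offset.

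**Figure D3:**
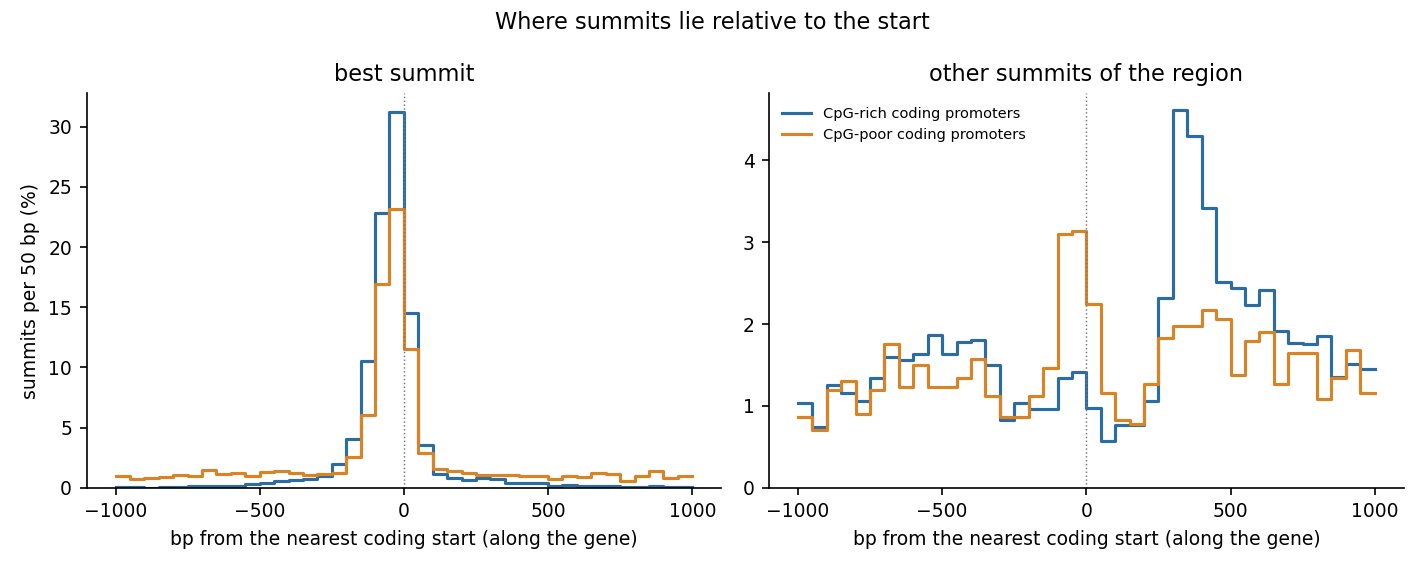
Position of the best summit (left) and of the other summits of the same extended region (right) in bp from the nearest coding start along the gene (x axis), as a percentage of summits per 50 bp (y axis), for CpG-rich (blue) and CpG-poor (orange) coding promoters. Best summits of both classes peak just upstream of the start, and the other summits of CpG-rich promoters peak 300 to 400 bp downstream with 620 summits.

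The sequence around the start was asymmetric as well. Among the 6542 members without a head-to-head gene, the median G over C excess, expressed as a percentage of all G and C, was -0.949% in the 500 bp upstream and 6.70% in the 500 bp downstream, and it was higher downstream in 67.5% of members (66.4 to 68.6). Averaged over members the excess moved from 1.18% in the last 50 bp before the start to 9.49% in the first 50 bp after it. The median number of CpG dinucleotides was 27 in the 500 bp upstream and 47 in the 500 bp downstream, with more downstream in 84.3% of members, as at Nfkbia and Actb above. At CpG-poor promoters the medians were 10 and 14, with more downstream in 65.9%. CpG-poor promoters had a G excess too, of 1.00% upstream and 6.38% downstream. The rule fixed the total CpG content around the summit and not its division between the sides.

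For 18 motifs, the sequence from 100 bp before to 100 bp after each best summit was searched in both orientations. Words that hold a CpG or are rich in G and C are favoured by the rule, so the shares are given beside the CpG-rich regions away from starts. GGGGCGGG, bound by the SP and KLF zinc finger factors, was present in 35.8% of members (34.7 to 36.9), 12.8% of CpG-poor promoters, 18.4% of CpG-rich regions away from starts and 6.73% of all best summits. The NFY words CCAATCA and CCAATGA, which hold no CpG, were present in 15.5% of members against 10.6%, 10.8% and 6.50%. For the ETS word with a CpG, CCGGAAGT, the shares were 8.89%, 3.58%, 3.97% and 1.80%. NRF1, a regulator of genes for mitochondrial function, has the word GCGCATGC, and its shares were 5.64%, 1.66%, 5.10% and 1.17%. The CRE word TGACGTCA of the CREB and ATF factors was found in 4.16% of members and 1.82% of CpG-poor promoters, and the YY1 word AAGATGGC in 4.07% and 2.09%. Together with the E-box TCACGTGA of the USF and MiT factors (1.97% against 0.855%), these 7 motifs of 18 were more frequent at members than at CpG-poor promoters, with Newcombe intervals of the difference above 0, not adjusted for the number of motifs. Against CpG-rich regions away from starts the interval stayed above 0 for SP/KLF, ETS, NFY and YY1 only, and it held 0 for NRF1 (difference 0.544 points, -2.32 to 2.47) and CRE (1.61 points, -0.655 to 2.91).

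The motifs of factors that shape macrophage enhancers were scarcer at members. The PU.1 word GAGGAAGT was found in 2.12% of members, 7.91% of CpG-poor promoters and 10.1% of all best summits. It shares its last letters with the ETS word but cannot match the same site. The AP-1 word TGACTCA was found in 1.93%, 11.0% and 17.4%, the IRF word AAANNGAAA in 2.16%, 9.12% and 9.28%, the C/EBP word TTGCNNAA in 4.00%, 9.17% and 11.6%, and the RUNX word TGTGGTTT in 0.394%, 2.22% and 3.57%. NF-kB sites were found in 3.62% and 5.67% of members and CpG-poor promoters, STAT6 sites in 1.25% and 3.34%, and CTCF sites in 0.829% and 2.49%. With HNF4 (CAAAGTCCA, 0.0680% and 0.294%) these made 9 motifs less frequent at members. For ZNF143/THAP11 (ACTACAATT, 0.626% and 0.722%) and the POU octamer (ATGCAAAT, 1.05% and 1.36%) the interval of the difference held 0. Words rich in A and T are disfavoured by the GC threshold of the rule. Against the CpG-rich regions away from starts, AP-1 (7.08%), C/EBP (6.80%), NF-kB (5.95%), CTCF (3.68%) and POU (2.27%) were less frequent at members, whereas for PU.1 (2.27%), IRF (3.68%), RUNX (0.567%) and STAT6 (1.42%) the interval held 0.

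The following stretches show the 200 bases before the start of the best scored member that holds each of 4 words there and near its summit, with no annotated untranslated region in the stretch. The word is in capitals in either orientation. Gatad2a is shown for SP/KLF, Mob3a for NRF1, Ogg1, a DNA glycosylase gene, for ETS and Rab22a, a GTPase gene of endosomes, for YY1.
Gatad2a (chr8:69996385-69996584, minus strand): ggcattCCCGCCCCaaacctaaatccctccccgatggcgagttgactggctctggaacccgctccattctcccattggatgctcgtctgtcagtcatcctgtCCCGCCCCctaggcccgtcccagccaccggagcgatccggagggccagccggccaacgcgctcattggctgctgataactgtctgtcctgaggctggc
Mob3a (chr10:80701978-80702177, minus strand): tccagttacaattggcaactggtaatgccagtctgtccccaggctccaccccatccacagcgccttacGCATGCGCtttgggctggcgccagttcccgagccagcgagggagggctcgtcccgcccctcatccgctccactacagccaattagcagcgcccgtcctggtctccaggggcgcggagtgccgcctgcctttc
Ogg1 (chr6:113326772-113326971, plus strand): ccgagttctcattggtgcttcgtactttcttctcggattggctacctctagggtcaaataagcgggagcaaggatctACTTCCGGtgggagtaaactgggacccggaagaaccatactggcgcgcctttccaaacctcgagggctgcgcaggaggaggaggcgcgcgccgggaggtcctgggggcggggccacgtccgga
Rab22a (chr2:173659560-173659759, plus strand): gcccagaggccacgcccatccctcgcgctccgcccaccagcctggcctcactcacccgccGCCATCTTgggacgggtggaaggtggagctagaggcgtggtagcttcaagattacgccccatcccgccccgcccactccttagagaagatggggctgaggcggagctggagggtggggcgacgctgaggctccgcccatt

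The scores of these 4 members were 2442, 2219, 2349 and 2362. The stretch of Gatad2a has the SP/KLF word at 2 places, and its summit also had an NFY word within 100 bp. The words had preferred places relative to the start. Over all members and 300 bp to each side, the 1740 NFY words had their median at -67 bp from the start (quartiles -133 and -24 bp, negative values lying upstream), and 82.5% were upstream (80.6 to 84.2). CRE words (73.5% upstream), NRF1 words (70.2%) and SP/KLF words (67.7%) had medians of -34, -37.5 and -36 bp, and ETS words one of -9 bp with 56.5% upstream. YY1 words went the other way, with a median of 28 bp and 31.6% upstream (28.3 to 35.2). YY1 words were also farther from the summit, with a median distance of 105 bp against 43 to 75 bp for the other 5 kinds.

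Of the motifs for SP/KLF, NRF1, ETS, NFY, CRE and YY1, NFY was the one whose share moved most with the score. From the lowest to the highest of 4 quartile groups of member score, divided at 1164, 1543 and 1864, its share was 5.51%, 10.9%, 16.8% and 29.4%, a difference between the outer groups of 23.9 points (21.5 to 26.3) that had the same sign on 19 of 19 autosomes. Members without the word had a median score of 1480, those with 1 word 1812, those with 2 words 1916, and the 24 with 3 or more words 2107. Between members with and without the word the medians differed by 301 to 383 in each of 5 GC bins. The relation was not particular to CpG-rich promoters, since CpG-poor promoters with the word scored 1443 and those without it 1082, a difference of 361 beside 358 at members. SP/KLF showed a smaller difference in the same direction (31.5% in the lowest and 38% in the highest group, 6.49 points, 3.40 to 9.57). NRF1 and YY1 were less frequent in the highest group, at 3.28% against 6.47% and at 1.70% against 4.60%, in the same direction on 17 of 19 autosomes for both. Searched from 250 bp before to 50 bp after the start instead, NRF1 was again less frequent in the highest group (4.52% against 6.90%), but YY1 was not (5.03% against 4.87%), and NFY went from 6.58% to 29.9%. The quartile groups also differed in width, from a median of 244 bp in the lowest to 523 bp in the highest, while their median GC content lay between 60.0 and 61.5%.

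**Figure D4:**
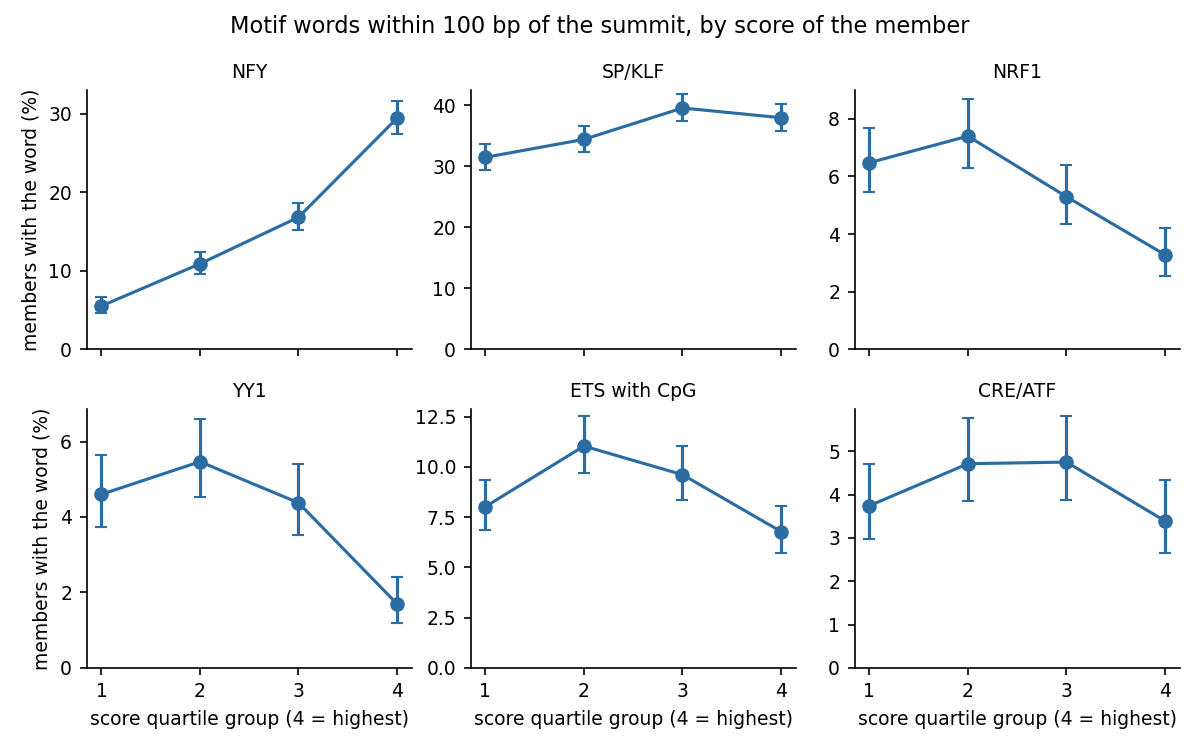
Share of members with each motif word within 100 bp of the best summit (y axis, %) by quartile group of member score (x axis, 4 is the highest). Points are shares of 1768 to 1869 members and bars are 95% Wilson intervals. NFY rises from 5.51% to 29.4%, whereas YY1, NRF1, ETS (6.79%) and CRE (3.39%) are lowest in the highest group in this window. For ETS and CRE the interval of the difference between the outer groups held 0. Around the start, YY1 is at 4.87% in the lowest and 5.03% in the highest group.

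Words were also compared between CpG-rich starts with and without a peak, searched from 250 bp upstream to 50 bp downstream of the most upstream start. These genes were classed by start sequence alone, so that the rule does not fix the comparison. The ETS word was present at 10.0% of the 8038 CpG-rich starts with a peak and at 1.58% of the 1584 without, beside 4.96% of all coding starts. The shares were 5.27% and 1.26% for YY1 (2.93% of all coding starts), 6.73% and 2.97% for NRF1 (3.47%), 16.2% and 8.90% for NFY (12.6%), and 4.28% and 1.83% for CRE (2.45%). For SP/KLF they were 37.2% and 35.7% (difference 1.53 points, -1.08 to 4.08), so that for the most frequent word the interval of the difference held 0. Read the other way, 97.0% of CpG-rich starts with the ETS word had a peak (95.6 to 98.0) against 82.3% of those without it, and 95.5% with the YY1 word. Of the 56 starts with the ZNF143/THAP11 word, 56 had a peak (lower limit 93.6%). A peak was found at 79.1% of CpG-rich starts with none of the words for NRF1, ETS, NFY, CRE and YY1, at 91.5% of those with 1 of these motifs and at 97.2% of those with 2 or more. These 5 motifs had each been seen to be more frequent at starts with a peak in the same genes, so these shares restate that difference and are no separate result. In all, 10 of 18 motifs were more frequent at starts with a peak, among them PU.1 (2.55% against 1.26%) and RUNX (0.883% against 0.379%), which were scarcer at members than at CpG-poor promoters. NF-kB was the single one less frequent there (5.05% against 6.31%, difference -1.26 points, -2.65 to -0.0580), and for 7 the interval held 0.

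Many members lay between genes on opposite strands. In 812 members (11.0%, 10.3 to 11.8) coding starts of different genes faced away from each other within 1000 bp, with a median of 114.5 bp between them (quartiles 63 and 219). At CpG-poor promoters the share was 3.05% (2.54 to 3.65), and it was lower than at members on 19 of 19 autosomes. Head-to-head members scored higher than other members, with medians of 1683 (1632 to 1721) and 1518 (1505 to 1531), and had wider peaks, at 463.5 and 378 bp. The score was higher on 18 and the width on 19 of 19 autosomes, although 1 autosome had 14 such members only. The median GC content was 61.1% in both and the CpG ratio 0.801 and 0.794. Head-to-head members made up 6.63% of the lowest and 14.1% of the highest quartile group of score. In all, 973 members had 2 or more coding genes within 1000 bp.

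Among genes for replication and DNA repair, a head-to-head arrangement held for 13 of 39 genes with a member (33.3%), beside 1623 of all 8227 genes with a member (19.7%). Mcm4, a subunit of the replicative helicase, shared its member with Prkdc, the kinase of end joining (score 2114, starts 489 bp apart). The count was 10 of 31 for subunits of respiratory complex I (32.3%) and 8 of 32 each for the proteasome and for Mediator with RNA polymerase II (25.0%). It was 10 of 67 for ribosomal proteins (14.9%) and 1 of 34 for Rab GTPases (2.94%).

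In 6 gene families that are mostly used by all cells, nearly all CpG-rich starts had a peak. Over these families (ribosomal proteins, proteasome, complex I, Mediator and RNA polymerase II, Rab GTPases, and replication and repair), 225 of 284 genes had a CpG-rich start, and 221 of these had a peak (98.2%, 95.5 to 99.3), beside 83.5% of all CpG-rich starts. Of their 59 CpG-poor starts 41 had a peak, beside 27.6% of all CpG-poor starts. These shares are not matched for the CpG ratio. Starts that failed the GC threshold alone were counted as CpG-poor, as those of Med25 (ratio 1.02) and Ndufs7 (0.957). Over all genes a peak lay at 62.3% of starts with a ratio between 0.5 and 0.6, against 6.17% below 0.1. The lists were made by family and hold some genes of restricted expression. The 4 CpG-rich starts without a peak were those of Rpl10l, a testis copy of a ribosomal protein gene, and of Rab15, Rab4a and Rab6b. Over all coding genes 39.7% had a member. In these families a member was found for 67 of 76 ribosomal protein genes (median score 1594). Their scores ran from Rpl15 (2415) and Rpl27 (2219) down to Rpl3 (716) and Rpl19 (613). Another region of Rpl3, just outside the GC threshold and thus no member, scored 2008. A member was found for 32 of 38 proteasome genes (1612.5), with Psmd3 and Psmd8 at 2206, Psmc1 at 923 and Psmb4 and Psmb5 at 934. Complex I had 31 of 35 and the lowest median of the 6 families, 1369, between Ndufv1 and Ndufb5 (2074) and Ndufa9 (979) and Ndufs4 (780). Mediator and RNA polymerase II had 32 of 39 (median 1625.5, Med19 2323, Med21 and Med29 2087, Polr2c 780, Med25 544). Rab GTPases, which direct vesicle traffic, had 34 of 55 and the highest median, 1896.5, led by Rab40c (2415) and Rab22a (2362) and ending at Rab23 (845) and Rab34 (748). Replication and repair had 39 of 41 (median 1696), with Mcm4 (2114) among the highest, down to Brca2 (1013) and Chek1 (706). The median over all 8227 genes with a member was 1556 (quartiles 1188 and 1864).

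Most regulators of development had a CpG-rich start too, but mostly no peak there. Over the Hox, Fox, Sox and Pax, Tbx, Lhx, Nkx and Gata, and Wnt families, 109 of 165 genes had a CpG-rich start and 29 of these had a peak (26.6%, 19.2 to 35.6), beside 83.5% of all CpG-rich starts. Of their 56 CpG-poor starts 10 had a peak, beside 27.6% of all CpG-poor starts. Their CpG-rich starts had a median CpG ratio of 0.767 and GC content of 63.6%, close to the 0.782 and above the 57.5% of the 6 broadly used families. A word for NRF1, ETS, NFY, CRE or YY1 was present at 22.9% of their CpG-rich starts (16.0 to 31.7), against 40.4% in the 6 families (34.2 to 47.0) and 33.5% of all CpG-rich starts. These motifs had already been seen to be more frequent at starts with a peak. Since the groups differ in their share with a peak, the contrast in part restates that difference. Within the developmental families the motifs were not more frequent where a peak was present, as 4 of the 29 starts with a peak held one (13.8%). The 29 with a peak had a median score of 845 for the best summit at the start, against 1581 in the 6 families.

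The families differed among themselves. Of 24 CpG-rich Hox starts 3 had a peak, among them those of Hoxa4 (1153) and Hoxa7 (1036), and Hox members were also found at Hoxb4 (1431) and Hoxa10 (823). Sox and Pax genes had 2 of 19, at Sox12 (1418) and Sox4 (1248). Pax6 (1480) and Pax5 (634) had members at starts other than the most upstream one. Tbx, Lhx, Nkx and Gata genes had 6 of 22, and their members ran from Lhx2 (1581) and Lhx1 (780) down to Tbx3 (544) and Nkx6-1 (524). The members of Lhx2 and Lhx1 lay at starts other than the most upstream one. At that start Lhx2 had a peak with a score of 341 and Lhx1 had no peak. Wnt genes, which encode secreted signals, had 2 of 13 and 0 members, and the peaks near Wnt10b (307) and Wnt9a (341) lay over 700 bp from their starts. The Fox family had 16 of 31. Among the 16 Fox genes with a member, Foxa3 (1877), whose most upstream start was CpG-poor, and Foxn2 (1838) scored highest and Foxj2 (515) and Foxd1 (448) lowest. Germline genes had a peak at 1 of 16 CpG-rich starts, that of Dazl (1670), and imprinted coding genes at 2 of 13, Cdkn1c (1406) and Zrsr1 (613). Members of the imprinted list were also found at Impact (1838), Gnas (968) and Plagl1 (685).

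**Figure D5:**
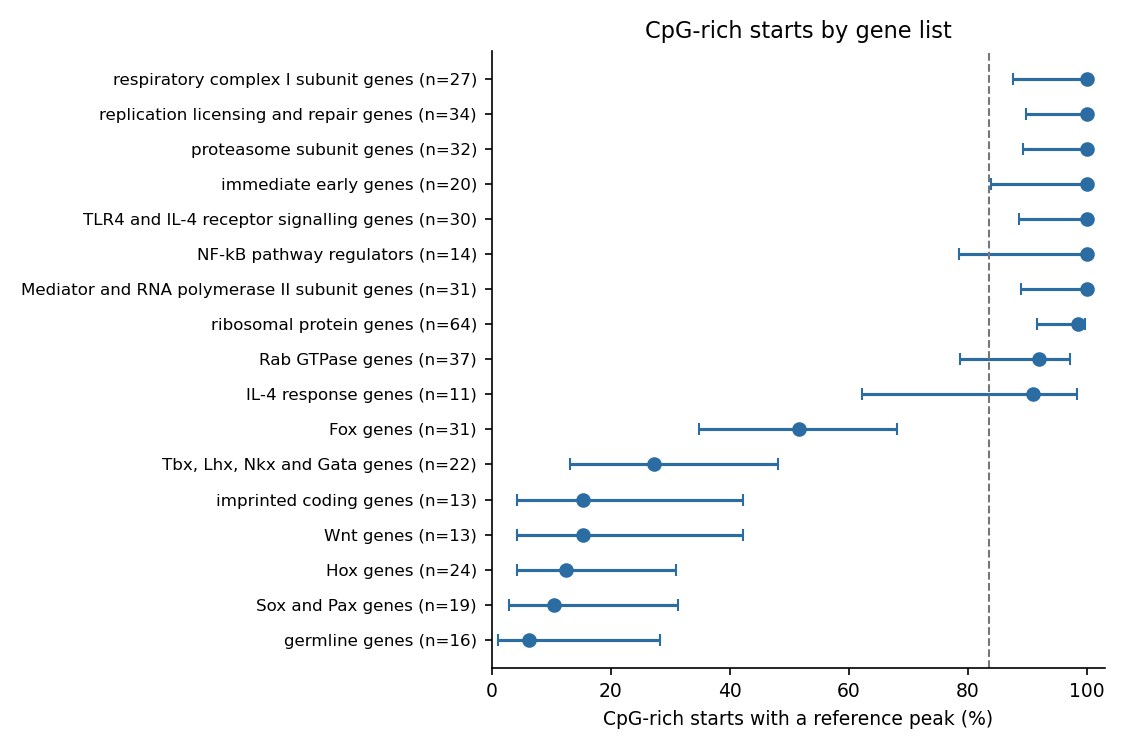
Share of CpG-rich coding starts with a reference peak within 1000 bp (x axis, %) for each gene list with at least 10 CpG-rich starts (y axis, n is their number). Points are shares with 95% Wilson intervals and the dashed line is the share over all CpG-rich starts, 83.5%; the lists of broadly used families, immediate early genes, NF-kB regulators, signalling and the IL-4 response lie at 90.9% and above, and those of developmental, germline and imprinted genes at 51.6% and below.

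Genes of the macrophage response divided by role. The mediators at the end of the response had few CpG-rich starts: 2 of 32 cytokine and chemokine genes, 3 of 24 inflammatory effectors and 5 of 34 interferon-stimulated genes, in all 10 of 90 (11.1%, 6.15 to 19.3), beside 46.4% of all coding genes. All 10 had a peak, but so had 71 of the 80 CpG-poor starts of these lists, beside 27.6% of all CpG-poor starts. The CpG-rich exceptions included Csf1 (1129), the growth factor of macrophages, and Cxcl16 (1284) among the secreted mediators, Cd83 (1734), F3 (823), which encodes tissue factor, and Slc7a2 (1002), an arginine transporter, among the effectors, and Irf1 (1696), Stat2 (1890), Psmb9 and Tap1 among the interferon-stimulated genes. Psmb9 and Tap1, an immunoproteasome subunit and an antigen peptide transporter, shared 1 member (1357). Sod2 (2193) and Cmpk2 (1443) had a CpG-poor most upstream start and still a member.

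Genes upstream in the response were mostly CpG-rich. Over all coding genes, 46.4% had a CpG-rich start, 83.5% of these starts had a peak, 27.6% of CpG-poor starts had one, and 39.7% of genes had a member. The CpG-poor starts of the 3 lists that follow had a peak at 4 of 5 immediate early genes, 6 of 7 NF-kB regulators and 14 of 14 signalling genes. Among immediate early genes, which are induced without new protein synthesis, 20 of 25 had a CpG-rich start and all 20 had a peak. Their members had a median score of 1870.5, from the antiproliferative gene Btg2 (2193) and Atf3 (2166) to Egr3 (1443) and Egr2 (1308). The CpG-poor ones were Atf3, Dusp1, Egr1, Maff and Zfp36, of which Atf3, Dusp1 (1594) and Maff (1493) still had a member, while Egr1 and Zfp36 had a peak and no member. Of the regulators of the NF-kB pathway, 14 of 21 had a CpG-rich start, all with a peak, and 16 had a member, with the adaptor Traf2 (2245) and the subunit Relb (2193) highest and Traf6 (1581) and Traf3 (1381) lowest. The CpG-poor ones were Birc3, Nfkb2, Nfkbib, Nfkbid, Tnip1, Tnip3 and Traf1. For signalling from TLR4 and the IL-4 receptor, 30 of 44 starts were CpG-rich and all 30 had a peak. Members were led by Ripk2 (2691) and the kinase Rps6ka5 (2297) and ended at the transcription factor Irf3 (956) and the kinase Jak3 (856). The receptor gene Tlr4, its partners Cd14 and Ly96, the adaptors Ticam1 and Ticam2 and Stat6 were among the 14 CpG-poor ones.

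Of the IL-4 response genes, 11 of 25 had a CpG-rich start and 10 of these had a peak, Cdh1 being the exception, beside 46.4% of all coding genes with such a start and 83.5% of these with a peak. These shares were near those of all genes. Of the 14 CpG-poor starts of this list, however, 9 had a peak, beside 27.6% of all CpG-poor starts. The members of the IL-4 response genes included Socs1 (1955), a feedback inhibitor of cytokine signalling, and Klf4 (1734). The lowest were Flt1 (706) and Pparg (603), the nuclear receptor of lipid metabolism. Of 25 macrophage genes only 6 had a CpG-rich start (24.0%, 11.5 to 43.4), all with a peak. They included the Fc receptor gene Fcgr3 (2415) and genes of the transcription factors Cebpa (1955), Maf (1468), Irf8 (1308) and Cebpb (1224). The other macrophage genes of the list had CpG-poor starts, of which 18 of 19 had a peak, beside 27.6% of all CpG-poor starts. Marker lists of other cell types contained 4 members: Pax5 (634), Kdr (685), Erg (486) and Mbp (856), all below the lower quartile of the members, 1164.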

How the data were processed

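The 18 ATAC-seq libraries had been read from a single end for 76 bases. The methods and the submitters' processing notes name BBDuk for adapter removal, Trimmomatic 0.39 for trimming, ShortStack for mapping to mm10, SAMtools 1.9 for filtering and MACS2 2.2.6 for peak calling. Reads were extended by a fixed length and all duplicates were kept, so that a score can include copies made by PCR. Peaks passed a stringent q-value in single libraries and overlapped between replicates, which leaves out regions found in a single replicate.

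The deposited lists of reference peaks, extended regions and summits carry positions, and the summit list carries a score per summit whose scale is not given in the sources used here. There are 0 columns of other samples. Depth is unknown, and the groups of 2 libraries could not be compared.

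Starts were taken from protein-coding transcripts of GENCODE (release vM21) and sequence from GRCm38.p6, the patch release of mm10. List entries ended inside the chromosome on 19 of 19 autosomes, and 0 of 58386 best summits lay on an unknown base. Regions were counted with python 3.11.15, numpy 2.4.6, pandas 2.3.3 and scipy 1.17.1 and drawn with matplotlib 3.10.9. Shares have 95% Wilson intervals, differences of shares Newcombe intervals and medians order-statistic intervals, and no p-value was computed. The counting was tested on simulated data. Alternatives to the distance, the window, the thresholds and the choice of starts, summits and peaks are given in the closing section.

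The members and the gene lists were chosen with earlier results of these data known. The text names the 5 members with the highest score, the lowest score, the widest peak and the highest CpG ratio, the members next to each threshold, per gene list the 2 genes with the highest and the lowest member score, and list genes outside the class of their list where these were few. Other genes were named after their values were seen. Printed stretches had to hold the word within 200 bp before the start and no annotated untranslated region. Egr1 was not a member, and no sequence of chromosome 18 is printed. Some genes and sequences that the naming rule covers are not reported here.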

Additional observations from a re-analysis of the deposited data

How the results depend on the processing

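The values that moved did so without a change of direction. With 500 bp in place of 1000 bp between peak and start, 82.4% of CpG-rich and 24.5% of CpG-poor starts had a peak, and with summits at or above the median score alone the shares were 78.2% and 21.7%. The median score was 1248 when all summits that met the rule were counted, since further summits of a region scored lower by construction. The median distance from the start was -37 bp at genes with a single coding start. The difference in peak width was 110 bp for peaks with a single summit. The median number of regions over 1000 bp from any start near a member was 1 within 20000 bp and 7 within 100000 bp. The other 15 of 24 alternatives stayed within the limits set for each value, and 0 reversed a direction. The number of members lay between 5875 (GC of at least 55% and CpG ratio of at least 0.65) and 7942 (a window of 250 bp to each side). The number of motifs more frequent at members than at CpG-poor promoters was 7 in both other windows, and that of less frequent motifs was 8 with 50 bp and 10 with 200 bp to each side, against 9. No paired analysis was possible because the lists hold no value per library, and for the same reason no library could be left out. The unknown depth limits what the absence of a peak means at a start.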

Other observations

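The TATA word TATAAA, searched 40 to 15 bp before the start on the gene's strand, was found in 47 members (0.639%, 95% Wilson interval 0.481 to 0.849) and 45 CpG-poor coding promoters (1.20%, 0.9 to 1.61). The difference was -0.564 percentage points (-0.996 to -0.196). Members with the word had a median score of 1619 and CpG-poor promoters with it one of 1071.

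Large gene families of the senses and of epithelia had almost no CpG-rich start. Over all coding genes 46.4% had one, and 27.6% of CpG-poor starts had a peak. Of 1085 olfactory receptor genes 0 had one, and 8 had a peak. Of 325 vomeronasal receptor genes, Vmn1r4 alone had a CpG-rich start and a member, which it shared with Nt5c3 (score 1786), and Vmn1r21 had a peak (282). Of 49 keratin genes 0 had a CpG-rich start, although Krt10 had a member at another start (1480). Of 66 genes matched as defensins by name 0 had a CpG-rich start, and the 2 with a peak were Defb30 (845) and Def6 (1431), which is no defensin.

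The number of regions over 1000 bp from any start was compared around members and CpG-poor promoters. The median was 1 against 2 within 20000 bp, 4 in both within 50000 bp (means 4.04 and 4.58) and 7 against 8 within 100000 bp. The share with no such region was higher at members within 20000 bp (26.6% against 22.5%) but not within 50000 bp (7.14% against 7.54%) or 100000 bp (2.39% against 2.97%).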
